A study of Mus musculus with 18 samples.

Results

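Fetal and adult brown fat of the interscapular depot of C57BL/6 mice were compared, with 3 RNA-seq libraries a side, all from offspring of mothers fed a control diet through pregnancy and lactation. These 6 libraries were chosen by their titles, not by any measured value, from the 18 libraries of the series, which also holds offspring of mothers fed a fish oil diet. The fetal control group has no age in the labels beyond fetus. The adult control group was 15 weeks old and had eaten a high fat diet for 8 weeks, which the fetal and weaned groups had not. Age, the high fat diet and the life between cannot be told apart in this contrast, and neither, in part, can sex. In bulk tissue, fewer cells of a type and less RNA per cell cannot be told apart either. Another group of 3 libraries, the weaned control group at 3 weeks, was used to see whether a gene passed through a peak or a trough on the way. The replicates carry numbers in the labels, but nothing says that they came from separate litters or that a fetal sample was 1 fetus. A p-value here therefore reflects how far these libraries differ from each other, which may be partly technical.

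Brown fat is the tissue in which mammals make heat without shivering. Its adipocytes are packed with mitochondria, and uncoupling protein 1 (Ucp1) lets protons return across the inner mitochondrial membrane without making ATP. Noradrenaline from sympathetic nerves acts through beta-adrenergic receptors and cyclic AMP to release fatty acids from lipid droplets, and these fatty acids both fuel the mitochondria and activate Ucp1. In the mouse the interscapular depot forms before birth from precursors that it shares with skeletal muscle, and it takes on its stores of triglyceride and its nerve supply around and after birth.

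Levels are given as counts scaled to a common library size (CPM) by the TMM method, which trims the most extreme genes before it compares libraries, and a fold change is adult relative to fetal on the log2 scale with its standard error (SE). A gene was called where edgeR's quasi-likelihood test gave a Benjamini-Hochberg adjusted p under 0.05. The forward totals ran from 9434710 to 13971209 counts in the fetal libraries and from 9232037 to 9663600 in the adult ones, and the mitochondrial rRNA mt-Rnr2 took 47.33 to 51.81% and 43.35 to 44.54% of them. A count of 3 in 1 library was worth 0.173 to 0.35 CPM. Of the 3 weaned libraries, replicate 3 stood apart: its correlation with the other two across genes was 0.963 on log2 CPM, against 0.986 between those. Xist, which is expressed in females, was at 186, 333 and 1.91 CPM in the 3 fetal libraries and at 0 to 1.97 CPM in the adult ones. The Y-linked Ddx3y was at 34.7 to 95.9 CPM in all 6, so fetal libraries 1 and 2 held Xist and a Y-linked transcript together. By these transcripts sex differed in part between the fetal and adult groups, and there it cannot be told apart from age. List counts were also made with fetal library 3 alone, whose Xist level lay in the adult range, against the adults. Markers of the labelled tissue were present: Ucp1 was at least 1667 CPM and Cidea at least 497 CPM in each of the 6 libraries. No gene of the epidermis or mesothelium lists was abundant enough to be tested. Skeletal muscle markers were present too, and unequally, with sums of 1017 to 1609 CPM in the fetal and 72.8 to 395 CPM in the adult libraries.

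Of 12495 genes tested, 60.1% were called: 3743 were higher in the adult libraries (30%) and 3762 were lower (30.1%). A change of at least 2-fold was called for 1702 genes upward (13.6%) and 1514 downward (12.1%). The fetal and adult libraries did not overlap for 65.5% of the genes tested. These shares are the background for every count below, since a list in which about 3 in 10 members rose and 3 in 10 fell does what genes in general did. The median log2 fold change of all genes was -0.03. With no scaling beyond library size it was -0.42 and only 25.8% of the calls were upward, against 49.9%. A change smaller than the gap between these medians can turn on the scaling, and some larger ones did too. With library size alone Hk2 went from 0.51 to 0.11 and was not called, and Ucp1 and Kit were not called either. With fetal library 3 alone, 4932 genes were called, 2306 of them lower.

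**Figure D1:**
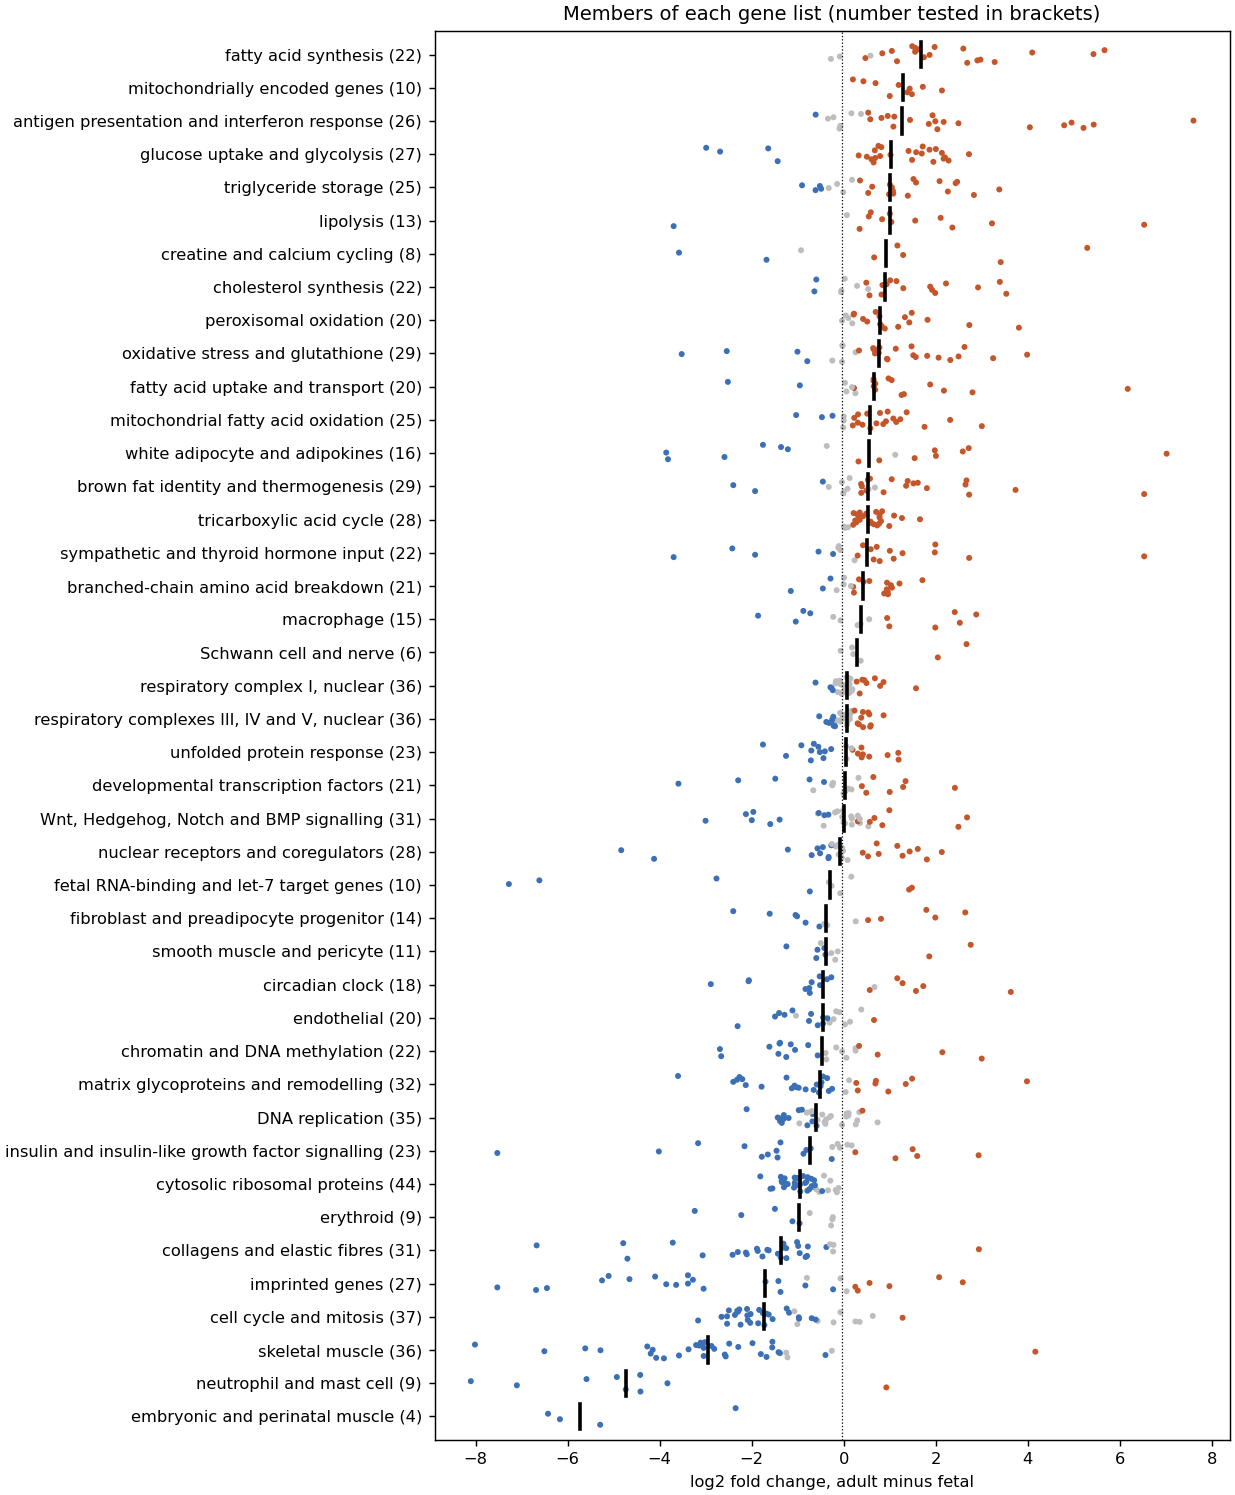
Log2 fold change of adult over fetal (horizontal axis) for each tested member (points) of the gene lists with at least 4 tested members. Orange points were called higher in adult, blue points lower, grey points did not pass; black bars are list medians and the dotted line is the median of all genes, -0.03. Fatty acid synthesis has the highest list median, 1.69, and embryonic and perinatal muscle the lowest, -5.73.

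Fatty acid synthesis had the highest median among the lists with at least 4 tested members. Of 22 tested fatty acid synthesis genes, 19 were higher in adult brown fat and none was lower, with a median log2 fold change of 1.69. Scd1, the desaturase that makes oleate and palmitoleate, was at 1188, 1107 and 993 CPM in the fetal libraries and at 55584, 53436 and 58689 in the adult ones (log2 fold change 5.67 ± 0.08 SE, adjusted p = 2.3e-16). Fasn, the fatty acid synthase, went from 195, 167 and 195 CPM to 8119, 7196 and 8729 (5.43 ± 0.09, adjusted p = 2.3e-15). For both genes the lowest adult library was over 30 times above the highest fetal one. Me1 (malic enzyme, a source of NADPH) rose by 4.10, Acaca (acetyl-CoA carboxylase 1, which commits carbon to fatty acid synthesis) by 3.28 and Acss2 (which makes acetyl-CoA from acetate) by 2.98. In the weaned libraries Scd1 was at 4787, 3464 and 1571 CPM and Fasn at 1799, 1485 and 1670.3, all between the fetal and adult values. Acaca was at 94.3, 142 and 392 CPM at weaning, where library 3 was far nearer to the adult values of 545, 502 and 625 than the other two.

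**Figure D2:**
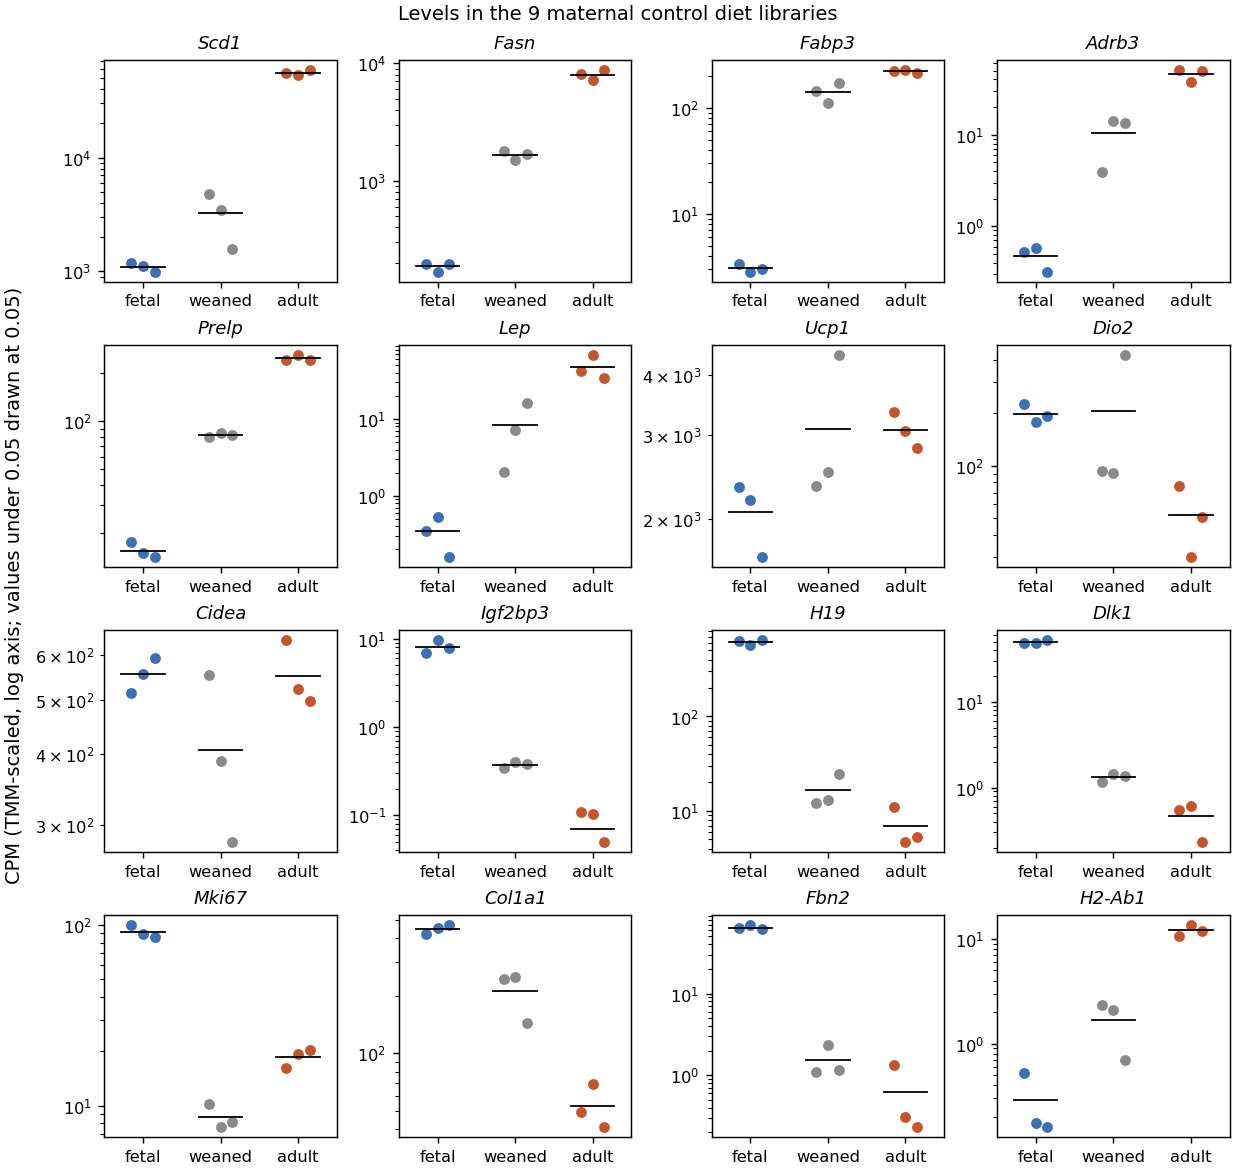
CPM (log axis) of 16 genes in each of the fetal, weaned and adult control libraries; points are libraries and bars are group means. Scd1, Fasn, Fabp3, Adrb3, Prelp and Lep sit far higher in the adult libraries than in the fetal ones, Igf2bp3, H19, Dlk1, Col1a1 and Fbn2 far lower, and the Cidea groups overlap.

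Storage, release and uptake of fatty acids followed. Triglyceride storage genes rose in 17 of 25 cases and fell in 4 (median 1.01). Dgat2, which performs the last step of triglyceride synthesis, went from 40.9, 34.5 and 36.7 CPM to 354, 390.4 and 424, a rise of 3.38, and the weaned libraries were at 350.0, 338 and 365 CPM, close to the adult ones. The lipid droplet coat proteins Plin1 and Plin2 rose by 2.47 and 2.09. Dgat1, the other enzyme of that last step, moved the opposite way, from 30.3, 30.4 and 30.0 CPM to 22.8, 18.7 and 17.8 (log2 fold change -0.61 ± 0.10, adjusted p = 8.1e-05), as did Lpin1, a phosphatidate phosphatase (-0.90 ± 0.07). Lipolysis genes rose in 11 of 13 cases and fell in 1 (median 1.00). The list includes G0s2, an inhibitor of adipose triglyceride lipase, at 16.5, 13.1 and 58.5 CPM in the fetal and 330.5, 266 and 219 in the adult libraries, and Mgll, which cleaves monoglycerides (2.11). Fatty acid uptake and transport rose in 14 of 20 (median 0.67). Its extreme member was the fatty acid carrier Fabp3, at 3.33, 2.83 and 3.03 CPM in the fetal libraries, 144, 111 and 171 in the weaned ones and 221, 226 and 214 in the adults (log2 fold change 6.18 ± 0.10). No fetal library came near any later one for Fabp3. Gpihbp1, which anchors lipoprotein lipase on capillaries, fell by 0.95. Mfsd2a, a lipid transporter named after its value was seen, fell by 2.52, a call lost in a fit of all 18 libraries.

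Sterol synthesis moved partly with fatty acid synthesis. Of 22 tested cholesterol genes, 15 rose and 2 fell (median 0.89). The falls were 1 without adult library 1 or 2 or fetal library 2 or 3, with fetal library 3 alone and by DESeq2, and 0 in fits of 9 or 18 libraries. Sc5d, a late enzyme of the pathway, rose by 3.40, and Insig1, which holds the sterol sensor Scap in the endoplasmic reticulum, went from 11.6, 12.9 and 12.1 CPM to 102, 83.8 and 93.1 with weaned values of 10.6, 12.0 and 14.0. The weaned libraries of Insig1 thus straddled the fetal range, and the step from weaned to adult was 2.93 (edgeR adjusted p = 1.5e-07).

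The promoters of 4 lists were compared by sequence, with every tested member taken whatever its call. The stretches below are the 250 bases before the RefSeq start of Fasn and Insig1, which rose, and of Mki67 and Cenpf, cell cycle genes that fell, in the GRCm38.p6 build and in the gene's direction. Capitals mark matches to CCAAT, the box bound by NF-Y, and to TTTGAA, the core of the cell cycle homology region (CHR), on either strand. The windows are Fasn at chr11:120824548-120824797 (minus strand), Insig1 at chr5:28071162-28071411 (plus), Mki67 at chr7:135716380-135716629 (minus) and Cenpf at chr1:189688087-189688336 (minus).
Fasn: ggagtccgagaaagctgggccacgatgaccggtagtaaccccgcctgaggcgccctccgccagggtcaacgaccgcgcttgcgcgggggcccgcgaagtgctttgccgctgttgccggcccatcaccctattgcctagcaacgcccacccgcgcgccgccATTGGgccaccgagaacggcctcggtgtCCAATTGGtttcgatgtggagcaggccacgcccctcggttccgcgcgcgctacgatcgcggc
Insig1: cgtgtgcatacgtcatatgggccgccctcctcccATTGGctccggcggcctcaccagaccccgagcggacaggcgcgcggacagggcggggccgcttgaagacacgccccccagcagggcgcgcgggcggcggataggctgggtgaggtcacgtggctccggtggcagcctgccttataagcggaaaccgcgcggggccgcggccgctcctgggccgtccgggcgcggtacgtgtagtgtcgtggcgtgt
Mki67: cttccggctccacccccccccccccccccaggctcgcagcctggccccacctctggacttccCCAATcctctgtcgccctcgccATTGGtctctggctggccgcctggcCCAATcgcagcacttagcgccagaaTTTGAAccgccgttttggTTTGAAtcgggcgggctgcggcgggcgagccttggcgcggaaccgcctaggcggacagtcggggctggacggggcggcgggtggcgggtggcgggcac
Cenpf: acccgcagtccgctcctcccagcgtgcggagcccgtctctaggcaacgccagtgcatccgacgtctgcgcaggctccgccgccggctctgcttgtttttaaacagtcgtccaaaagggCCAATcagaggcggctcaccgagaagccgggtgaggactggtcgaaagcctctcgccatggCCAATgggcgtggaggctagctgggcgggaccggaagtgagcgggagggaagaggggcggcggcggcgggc
Mki67 holds 3 CCAAT and 2 CHR matches, Cenpf 2 CCAAT, Fasn 3 CCAAT, of which a pair on opposite strands overlaps, and Insig1 has 1. RefSeq windows were matched for 30 of 37 tested cell cycle genes, 27 of 35 of DNA replication, 16 of 22 of cholesterol synthesis and 19 of 22 of fatty acid synthesis. The CCAAT box was found in 23 of 33 windows of tested cell cycle genes (69.7%), 21 of 32 of DNA replication (65.6%), 15 of 19 of cholesterol synthesis (78.9%) and 14 of 24 of fatty acid synthesis (58.3%). It was found in 35.1% of the windows of all genes tested and in 33.8% of all 32851 windows. TTTGAA was found in 9 of 33 cell cycle windows (27.3%), against 10.5% over genes tested and 16% over all windows. It was in 4 of 32 windows of DNA replication (12.5%), 3 of 24 of fatty acid synthesis (12.5%) and 1 of 19 of cholesterol synthesis (5.3%). CCAAT was thus found at a share above that of all tested genes in lists whose medians moved in opposite directions. A match is a description of the letters, not a bound site.

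Thermogenic genes rose in part. Of 29 tested brown fat identity genes, 18 rose and 3 fell (median 0.54). Ucp1 itself rose modestly, from 2329.7, 2195 and 1667 CPM to 3346, 3050.0 and 2814, without overlap between the groups (log2 fold change 0.57 ± 0.10, adjusted p = 0.00016); with library size alone as scaling it did not pass (0.20). Cidea, a lipid droplet protein of brown adipocytes, overlapped between the groups (-0.01 ± 0.09), and so did the adipocyte regulator Pparg (-0.04 ± 0.07). With library size alone both were called lower (-0.40 and -0.42). The clearest rises were in Elovl3, a fatty acid elongase, at 3.68, 2.89 and 0.797 CPM in the fetal and 49.8, 23.2 and 26.1 in the adult libraries (3.74 ± 0.34), in Otop1 (2.65), in S100b (2.67) and in the regulators Esrrg (1.81), Ppara (1.61) and Prdm16 (1.39). The 3 that fell were Dio2, Ppargc1a and Lhx8, the last named after its value was seen. Dio2, the deiodinase that makes active thyroid hormone inside the cell, fell from 224, 178 and 194 CPM to 76.1, 30.0 and 50.9 (-1.92 ± 0.21, adjusted p = 1.6e-06). In the weaned libraries Dio2 was at 92.5, 90.9 and 429 CPM, so 1 weaned library lay above and 2 lay below the fetal range. Ppargc1a, a coactivator of mitochondrial genes, was at 142, 129 and 100.2 CPM in the fetal and 108, 77.6 and 85.2 in the adult libraries (-0.45 ± 0.13, adjusted p = 0.0066), a call lost without fetal library 1 (-0.34) and with fetal library 3 alone (-0.19). Fgf21 was not tested, with 0 counts in the fetal and 6 in the adult libraries.

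Adrb3 and Adrb1, receptors for noradrenaline, rose. Adrb3, the adipocyte beta-3 receptor, was at 0.526, 0.578 and 0.319 CPM in the fetal libraries, 3.88, 14.0 and 13.3 in the weaned ones and 50.6, 37.7 and 49.5 in the adults (log2 fold change 6.53 ± 0.20, adjusted p = 1.2e-12). Adrb1 rose by 2.73. Of 22 tested genes of sympathetic and thyroid hormone input, 13 rose and 5 fell (3 in a fit of all 18 libraries). The thyroid hormone receptor Thrb rose by 1.99 and Nrg4, a secreted factor of brown fat that acts on nerves and liver, by 1.98, while Rgs2, a brake on G-protein signalling, fell by 2.42. In the small list for creatine and calcium cycling, 5 of 8 rose and 2, the muscle genes Ckmt2 and Atp2a1, fell (Ckmt2 is named after its value was seen, and Atp2a1 was not called with fetal library 3 alone, by DESeq2 or in fits of 9 or 18 libraries). Ryr2, a calcium release channel, went from 1.58, 1.16 and 0.877 CPM to 46.5, 54.1 and 40.7 (5.30 ± 0.17), and Alpl, a phosphatase placed in the creatine cycle, rose by 3.41. Ckb, the brain-type creatine kinase, was highest in the weaned libraries (14.4 to 43.6 CPM, against 1.93, 2.48 and 2.31 in the fetal and 3.62, 6.65 and 6.41 in the adult ones).

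White adipocyte and adipokine genes did not move as one: 8 of 16 rose and 6 fell. Lep (leptin) was at 0.350, 0.520 and 0.159 CPM in the fetal libraries and 42.8, 68.0 and 34.4 in the adults (7.02 ± 0.34), and Rbp4 rose by 2.72. Cfd (adipsin) fell from 53.5, 69.0 and 58.7 CPM to 11.4, 11.4 and 7.23 (-2.59 ± 0.14) and Agt (angiotensinogen) fell by 3.82. Across the 9 control libraries both had their highest value in weaned library 2, at 212 CPM for Cfd and 23.0 CPM for Agt.

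Lists of mitochondrial genes moved to different degrees. Of 28 tested tricarboxylic acid cycle and pyruvate dehydrogenase genes, 25 rose and none fell (median 0.53). With library size alone as scaling 13 rose and 3 fell. Of 25 mitochondrial fatty acid oxidation genes, 19 rose and 3 fell (median 0.58), and of 20 peroxisomal ones 16 rose and none fell (median 0.79). Ogdh, the entry subunit of oxoglutarate dehydrogenase, went from 351, 362 and 377 CPM to 1164, 1110.2 and 1173 (1.66 ± 0.06) and Pdha1, of pyruvate dehydrogenase, rose by 1.27. Cpt2, the inner carnitine palmitoyltransferase, went from 90.2, 90.6 and 82.9 to 431, 450.5 and 432 CPM (2.32 ± 0.07). Abcd2, a peroxisomal importer of very long chain fatty acids, went from 6.13, 5.60 and 6.30 to 80.7, 97.7 and 73.7 (3.81 ± 0.12). For Ogdh, Cpt2 and Abcd2 the lowest adult library lay well above the highest fetal one.

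Nuclear genes of the respiratory chain showed no such shift in counts or medians. Of 36 tested complex I genes, 9 rose and 4 fell (median 0.08), and of 36 genes of complexes III, IV and V, 11 rose and 9 fell (median 0.07). Their shares are near or under those of all genes. The summed level of complex I was 2820 to 2887 CPM in the fetal and 3314 to 3368 CPM in the adult libraries. That of the second list was 6781 to 6914 CPM and 8557 to 8773 CPM, so on the TMM scale neither sum overlapped. These levels are divided by TMM factors of 1.202 to 1.329 in the fetal and 0.929 to 1.013 in the adult libraries. Without the factors the fetal sums would stand higher against the adult ones, so the higher adult sums depend on the scaling. With library size alone 22 genes of each list fell, 3 and 2 rose, and both medians turned negative (-0.30 and -0.31). In fits of 9 or 18 libraries 1 and 2 fell. With fetal library 3 alone 5 complex I genes rose and the second list had 6 rises and 2 falls. The falls in the second list were also 2 without fetal library 2 and 4 without adult library 2, and those in complex I were 1 without adult library 2 or fetal library 3 and 2 without adult library 3 or fetal library 2. Ndufab1, which doubles as the mitochondrial acyl carrier protein, was the sole complex I gene to change at least 2-fold, at 27.5, 25.2 and 27.1 CPM in the fetal and 86.7, 74.5 and 76.0 in the adult libraries (1.57 ± 0.09). Ndufc2 fell by 0.61. All 10 tested mitochondrially encoded genes rose (median 1.29), including mt-Nd2, a core subunit of complex I, from 3966, 3515 and 3178 CPM to 16478, 14718 and 15702 (2.14 ± 0.08). The other 5 of the 15 genes in that list were too low to be tested. With library size alone 1 gene of the list fell. The list holds the rRNA mt-Rnr2, whose share of counts before TMM scaling was lower in the adults. That share was 43.35 to 44.54% in the adult and 47.33 to 51.81% in the fetal libraries. The median change of the mitochondrially encoded genes, rRNA included, was larger than that of the nuclear genes, a difference that was not tested. Branched-chain amino acid breakdown rose in 14 of 21 cases and fell in 3. With library size alone 9 rose and 7 fell, and 1 fell with fetal library 3 alone and in a fit of all 18 libraries. Pcca, of propionyl-CoA carboxylase, rose by 1.71.

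Most genes of glucose handling rose, and the glucose transporters moved in both directions. Of 27 tested genes of glucose uptake and glycolysis, 23 rose and 4 fell (median 1.02). Pfkl, the liver-type phosphofructokinase, went from 77.9, 74.4 and 70.9 CPM to 524, 489.7 and 462 (2.73 ± 0.08), and G6pdx, the entry to the pentose phosphate pathway, rose by 2.28. Slc2a4, the insulin-responsive transporter GLUT4, rose from 46.9, 53.5 and 50.7 to 91.0, 84.8 and 91.4 CPM (0.82 ± 0.08), whereas the widely expressed Slc2a1 fell by 1.64 and Slc2a3 by 2.99. Eno3, a muscle enolase, was also lower (-1.43 ± 0.31), and so were muscle markers, whose summed level was 1017 to 1609 CPM in the fetal and 72.8 to 395 CPM in the adult libraries. Their part in the fall of Eno3 was not tested.

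Pairs of related genes were set side by side, 16 pairs in all, of which 14 had both members tested. In 2 pairs 1 member fell and the other rose: Slc2a1 and Slc2a4, and the histone methyltransferases Ezh2 and Ezh1. The log2 ratio of Slc2a4 to Slc2a1 CPM went from a mean of 3.21 to 5.73, and that of Ezh1 to Ezh2 from 0.22 to 2.37. In other pairs both rose but unequally. The ratio of Scd1 to Scd2 went from 5.72 to 9.77. The ratio of Acacb to Acaca fell from 2.80 to 0.68. That of Hk2, the hexokinase of insulin-responsive tissues, to Hk1 fell from 4.32 to 2.61. The rise of Hk2 was not called in fits of 9 or 18 libraries or with library size alone (0.11). Transcript length is not taken into account, so a ratio does not say which gene is the more abundant, and no test of the ratio was made.

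**Figure D3:**
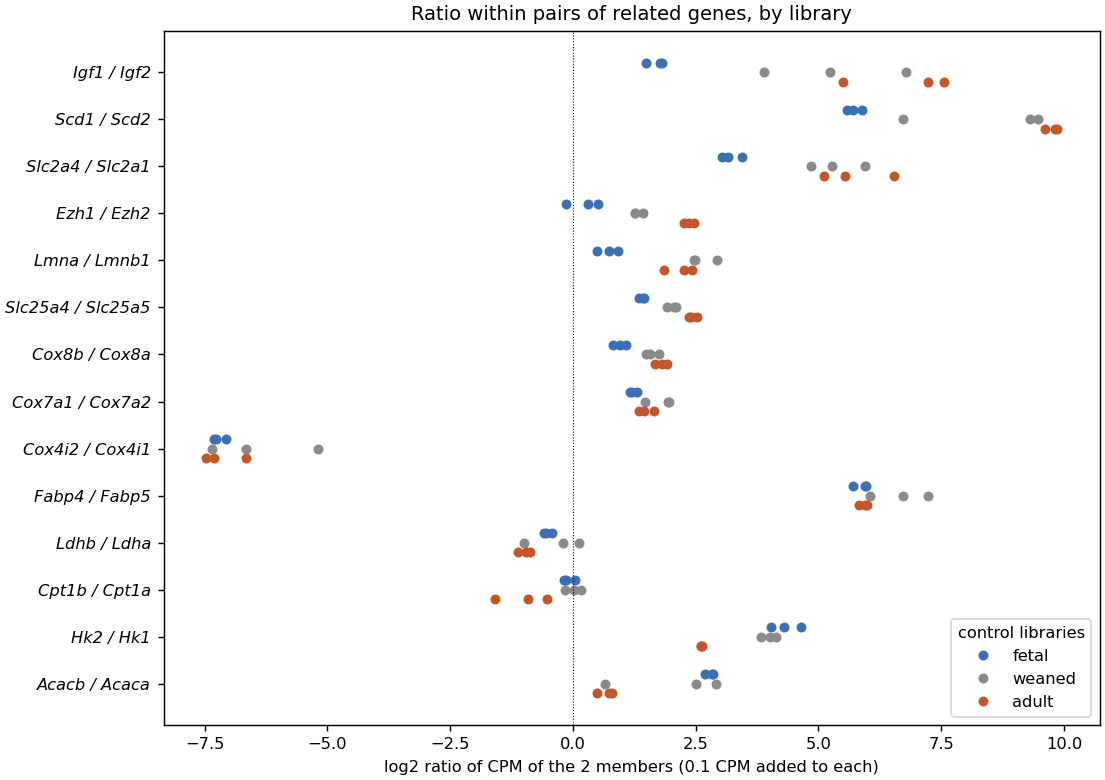
Log2 ratio of the CPM of 2 related genes (horizontal axis, 0.1 CPM added to each) in each fetal, weaned and adult control library (points), for the 14 pairs with both genes tested, ordered by the change from fetal to adult. The Igf1 to Igf2 ratio moves farthest, from a mean of 1.70 to 6.76, and the Ezh1 to Ezh2 ratio moves from 0.22 to 2.37.

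Growth genes of fetal life were low in adult brown fat. Of 27 tested imprinted genes, which are expressed from 1 parental copy and many of which control fetal growth, 18 fell and 6 rose (median -1.70). In a fit of all 18 libraries 3 rose. Igf2, the fetal growth factor, was at 13.9, 15.5 and 16.8 CPM in the fetal libraries and had 2 counts in all 3 adult libraries together, a ratio of 213 with a 95% counting interval of 58.6 to 1760.0. H19, the noncoding RNA beside it, fell from 623, 565 and 641 CPM to 11.0, 4.71 and 5.25 (-6.45 ± 0.20), and Dlk1, a preadipocyte surface protein that restrains adipogenesis, from 48.8, 48.7 and 52.0 to 0.548, 0.614 and 0.233 (-6.69 ± 0.17). Plagl1 and Zdbf2 fell by 5.25 and 5.11, and Mest by 3.86. At weaning H19 was at 12.3, 13.2 and 24.5 CPM and Dlk1 at 1.16, 1.44 and 1.38, far nearer to the adult than to the fetal values. Zdbf2 went on from 5.99, 5.42 and 5.21 CPM at weaning to 1.10, 0.717 and 0.933 in the adults. The imprinted genes that rose included Nnat, at 0.876, 0.751 and 0.877 CPM in the fetal and 6.03, 5.73 and 3.26 in the adult libraries, and Impact (1.00).

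Around these genes the insulin and insulin-like growth factor list fell in 13 of 23 cases and rose in 5 (3 with fetal library 3 alone). Igf1 fell from 48.2, 55.2 and 47.3 to 14.5, 18.6 and 14.9 CPM (-1.65 ± 0.11), the binding protein Igfbp3 by 4.02, the signalling inhibitor Socs2 by 3.16 and the adaptor Irs2 by 2.15. The growth hormone receptor Ghr rose by 1.60 and Grb14, which binds and restrains the insulin receptor, went from 14.9, 12.1 and 18.5 CPM to 111, 124 and 109.9 (2.93 ± 0.12). Igfbp3 stayed high at weaning (98.5, 116 and 87.7 CPM) and fell afterwards to 6.58, 4.20 and 5.13. Igf2bp3, an RNA-binding protein of fetal tissues, was at 6.92, 9.65 and 7.81 CPM in the fetal libraries with 2 adult counts in all, a ratio of 114.5 (31.4 to 949). Myc fell by 2.76.

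Cell division genes fell. Of 37 tested cell cycle and mitosis genes, 28 were lower and 1 higher in the adult libraries (median -1.72), and 24 fell at least 2-fold. Mki67, a marker of dividing cells, was at 99.7, 89.6 and 85.8 CPM in the fetal libraries, 10.3, 7.66 and 8.13 in the weaned ones and 16.1, 19.5 and 20.4 in the adults (log2 fold change -2.30 ± 0.10, adjusted p = 4.6e-11). Its weaned values were the lowest and no group overlapped another. Ccne2, the cyclin of the G1 to S transition, fell by 3.16, and Cenpe and Cenpf, which act at kinetochores, by 2.65 and 2.53. The gene that rose was Cdk6 (1.28). The rises were 3 without fetal library 2 and 2 without adult library 3 or with fetal library 3 alone. A trough at weaning was found for 8 of the 37, against 1.23% of all 13353 genes tested over the 3 groups. DNA replication genes moved less, with a list median of -0.59. Rrm1, of ribonucleotide reductase, rose (0.41 ± 0.09), though not with library size alone (0.03), and 14 of 35 fell. With fetal library 3 alone 5 fell and Rrm1 did not pass (0.40). Mcm7, of the replicative helicase, fell by 1.20. Chromatin genes fell in 11 of 22 cases, with the DNA methyltransferase Dnmt3a down by 1.25, the demethylases Tet2 and Tet3 by 1.39 and 1.38, and the lamin Lmnb1 by 1.61. Cbx7, a Polycomb reader, rose by 3.00.

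Cytosolic ribosomal protein genes fell in 34 of 44 cases and none rose (median -0.94), or in 22 with fetal library 3 alone. Rpl23 was at 8.85, 8.03 and 9.57 CPM in the fetal and 3.29, 2.87 and 2.56 in the adult libraries. These genes have many near-identical processed copies in the genome, so how their reads were shared out is uncertain.

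Transcripts of the extracellular matrix fell. Of 31 tested collagen and elastic fibre genes, 27 fell and Col8a1, a short-chain collagen, rose by 2.94 (list median -1.37). Col1a1, of type I collagen, went from 419.9, 453 and 467 CPM in the fetal libraries through 244, 249.8 and 144 in the weaned to 49.4, 69.1 and 41.3 in the adults (-3.06 ± 0.14, adjusted p = 5.8e-11). The 3 groups of Col1a1 did not overlap. Fbn2, the fibrillin of developing tissue, was at 63.1, 68.5 and 61.1 CPM in the fetal libraries, 1.09, 2.31 and 1.15 in the weaned ones and 1.32, 0.307 and 0.233 in the adults (-6.67 ± 0.22). Matrix glycoproteins fell in 22 of 32 cases and rose in 8 (median -0.52). With fetal library 3 alone 13 fell and 4 rose, in a fit of all 18 libraries 14 fell and 5 rose, and 5 also rose without fetal library 1, in a fit of 9 libraries and with library size alone. Vcan (versican) fell by 3.60, Postn (periostin) by 2.40 and Tnc (tenascin C) by 2.26. Prelp, a small leucine-rich proteoglycan, moved the opposite way, from 17.6, 15.0 and 14.3 CPM through 79.3, 85.0 and 81.5 to 240.2, 258 and 242 (3.99 ± 0.09).

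Developmental regulators and signalling lists moved in both directions. In the lists of this paragraph 22.6 to 35.7% rose and 23.8 to 35.7% fell. These shares are near those of all genes, 30% and 30.1%. Of 21 tested developmental transcription factors, 7 rose and 5 fell. The falls were 3 without fetal library 1 or 2 or adult library 3, with fetal library 3 alone, by DESeq2 and in a fit of all 18 libraries. With library size alone 4 rose and 10 fell, and the median went from 0.04 to -0.34. Tbx15, a T-box factor of mesenchyme, fell by 2.29 and Ebf3 rose by 1.00. Of 31 Wnt, Hedgehog, Notch and BMP genes, 7 rose and 9 fell (2 with fetal library 3 alone). Axin2, a standard target of Wnt signalling, rose from 4.20, 4.51 and 4.07 to 20.1, 26.2 and 26.2 CPM (2.50 ± 0.15), while Sfrp1, a secreted Wnt inhibitor, fell by 2.12. Nuclear receptors and coregulators rose in 10 and fell in 10 of 28. Nr4a3, an immediate-early receptor, fell from 54.2, 61.6 and 72.5 to 2.74, 1.23 and 2.68 CPM (-4.84 ± 0.18), and Fkbp5, a co-chaperone and target of the glucocorticoid receptor, from 41.2, 57.4 and 61.2 to 3.40, 2.97 and 2.80 (-4.12 ± 0.17). Weaned libraries 1 and 2 held 33.1 and 31.5 CPM of Nr4a3 and 55.2 and 48.0 of Fkbp5, and weaned library 3 held 3.22 and 11.0 CPM, nearer to the adults.

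Clock and stress genes also changed. Of 18 tested circadian clock genes, 11 fell and 6 rose. Per1 and Per2, of the negative limb, fell by 2.07 and 2.06 and Npas2 by 2.89, while Bhlhe40 went from 3.68, 4.04 and 3.27 CPM to 64.2, 35.8 and 38.1 (3.63 ± 0.21). In fits of 9 or 18 libraries 6 clock genes fell. The hour of collection is not in the labels, so collection time and age cannot be told apart for these genes. Oxidative stress and glutathione genes rose in 20 of 29 cases and fell in 4 (median 0.76). Extracellular superoxide dismutase (Sod3) rose by 2.63 and glutathione peroxidase 1 (Gpx1) by 2.32. Haem oxygenase 1 (Hmox1) fell from 51.6, 70.4 and 55.7 to 4.72, 5.32 and 5.48 CPM (-3.52 ± 0.14) and the metallothionein Mt2 by 2.54. Unfolded protein response genes were divided, with 9 of 23 up and 11 down (4 and 7 with fetal library 3 alone). Their median of 0.06 turned negative without each adult library (-0.16 to -0.09).

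Antigen presentation genes rose in 19 of 26 cases and fell in 1 (median 1.27). The class II genes were near the level of 3 counts in the fetal libraries: H2-Ab1 was at 0.526, 0.173 and 0.159 CPM and reached 10.6, 13.5 and 12.0 in the adults (5.44 ± 0.31). Cd74, the invariant chain that accompanies class II molecules, went from 0.526, 0.693 and 0.877 to 23.0, 32.8 and 23.5 CPM (5.22 ± 0.22). Class I H2-K1 rose by 2.18. H2 genes are a family with near-identical members, so their separate values are uncertain. Rsad2, an interferon-induced antiviral gene, fell by 0.61.

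Markers of other cell types moved as well. Skeletal muscle genes fell in 32 of 36 cases and rose in 1 (median -2.94), and the summed level of the list was 1017 to 1609 CPM in the fetal and 72.8 to 395 CPM in the adult libraries. In a list of 14 embryonic and perinatal muscle genes the 4 tested all fell, and the sum went from 165 to 278 CPM in the fetal to 3.07 to 6.36 CPM in the adult libraries. The perinatal myosin Myh8 went from 218, 128 and 192 CPM to 3.62, 1.64 and 0.933 (-6.43 ± 0.27) and the embryonic Myh3 from 36.9, 19.2 and 41.4 to 0.987, 0.102 and 0.233. Myh4, the fast adult myosin, was the gene that rose, at 2.01, 0.404 and 0.877 CPM in the fetal and 14.1, 0.819 and 40.9 in the adult libraries, where adult library 2 lay within the fetal range. It was not called by limma voom (3.13) or with fetal library 3 alone (4.34). The part of muscle tissue in the other changes was not tested.

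Mast cell and neutrophil genes fell in 8 of 9 cases and Kit rose (not in a fit of all 18 libraries or with library size alone), with summed levels of 58.1 to 76.9 CPM in the fetal and 8.39 to 13.8 CPM in the adult libraries. Cpa3, a mast cell protease, went from 22.6, 27.2 and 20.6 CPM to 0.658, 1.13 and 0.816, and S100a9, a neutrophil protein, from 13.1, 12.8 and 11.6 to 0.219, 0.717 and 0.233. Macrophage genes rose in 6 and fell in 4 of 15 (2 with fetal library 3 alone or in a fit of all 18 libraries), and the summed level overlapped between the groups (112 to 140 and 90.7 to 163 CPM). Within that list Lyz2 and Ccr2 rose by 2.88 and 2.53 while Lyve1 and Mrc1, of resident macrophages, fell by 1.86 and 0.88. Summed lymphocyte markers were at 1.36 to 1.93 CPM in the fetal and 9.10 to 11.9 CPM in the adult libraries. The part of immune cells in the rise of the class II genes was not tested. Of the lymphocyte list Ighm was the sole gene tested, at 0.788, 0.693 and 0.638 CPM in the fetal and 6.91, 7.27 and 7.69 in the adult libraries.

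Endothelial genes fell in 11 of 20 cases, and the summed level was 694 to 727 CPM in the fetal and 526 to 602 CPM in the adult libraries. Aplnr, the apelin receptor, fell by 2.30, and Flt1, a receptor of vascular endothelial growth factor, was the gene that rose (0.66). Of 11 smooth muscle and pericyte genes 5 fell and 2 rose (2 fell in a fit of all 18 libraries). Their summed level was nevertheless higher in the adult libraries, at 500 to 513 CPM against 272 to 293 CPM in the fetal ones. Rgs5, a pericyte marker, rose from 47.1, 44.9 and 40.3 CPM to 299, 294 and 305 (2.76 ± 0.08), whereas Pdgfrb, the receptor that recruits pericytes, fell by 1.24. Fibroblast and progenitor genes split, 5 up and 6 down of 14, with Pdgfra down by 1.05 and Pi16 up by 2.64. The summed level of that list was 445 to 473 CPM in the fetal and 156 to 203 CPM in the adult libraries. Erythroid genes fell in 5 of 9 cases, 8 without adult library 2, and the 4 tested adult globin genes and Alas2, of haem synthesis, peaked at weaning. Schwann cell genes rose in 2 of 6, with Mbp (myelin basic protein) up by 2.05.

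**Figure D4:**
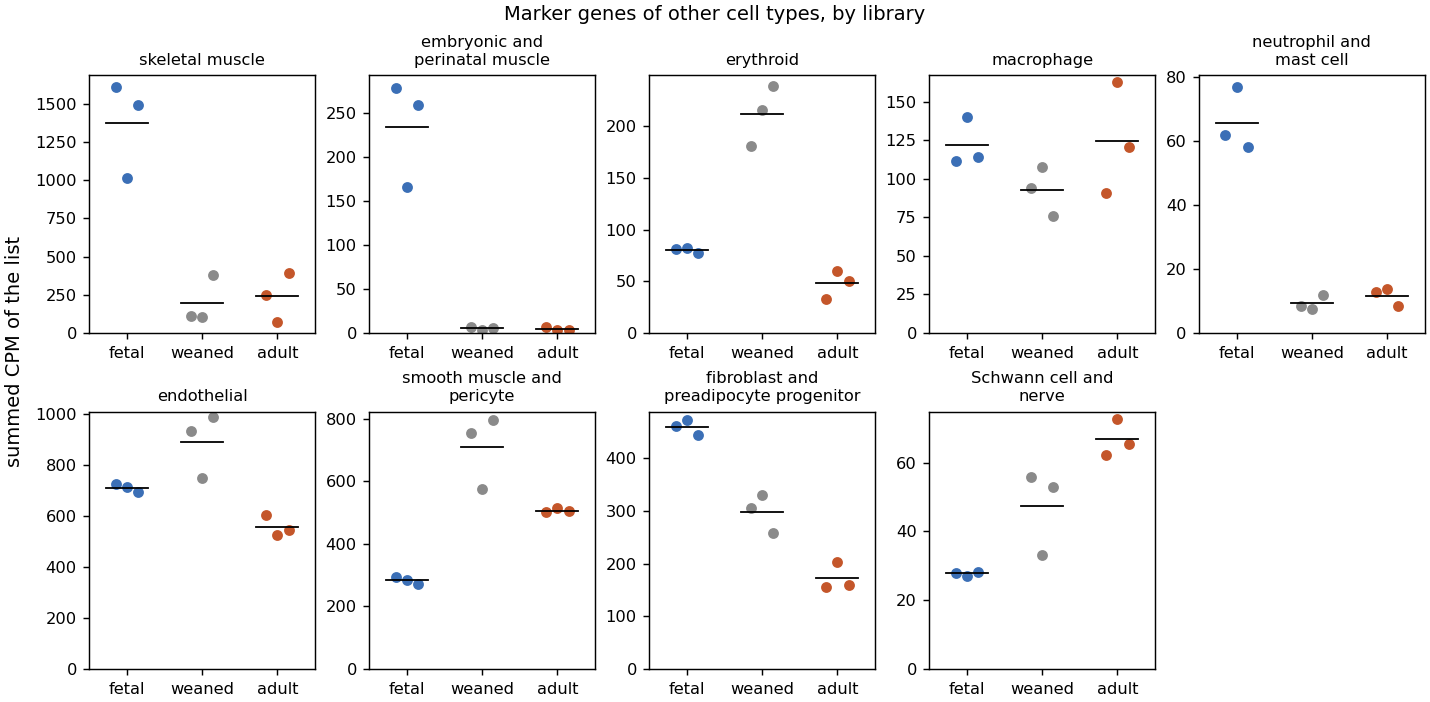
Summed CPM (vertical axes, each from 0) of 9 lists of marker genes in each fetal, weaned and adult control library; points are libraries and bars are group means. The skeletal muscle sum lies between 1017 and 1609 CPM in the fetal libraries and between 72.8 and 395 CPM in the adult ones, and the macrophage sums overlap.

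The 12 largest rises among called genes with at least 5 CPM in the adults were all in genes at low levels in the fetal libraries. Slc25a48, a mitochondrial carrier, had 3 fetal counts in all and 19.5, 23.2 and 24.2 CPM in the adult libraries, a ratio of 307 with a 95% counting interval of 104.6 to 1493. It passed through 3.68, 1.12 and 9.05 CPM at weaning. Gldn (gliomedin) followed at 7.85 ± 0.40, then Lep, Adrb3, H2-Q10 (6.32), Fabp3 and Gys2, the liver form of glycogen synthase, which went from 0.876, 0.924 and 0.159 CPM to 54.3, 44.3 and 45.3 (6.13 ± 0.22). Kng2, a kininogen gene, had weaned libraries around its adult level (0.964, 0.693 and 0.797 CPM fetal, 40.7, 36.3 and 58.3 weaned, 41.0, 44.0 and 44.6 adult). Fer1l6 was at 0.0681, 0.0797 and 0.153 CPM in the weaned and 6.69, 4.10 and 5.71 in the adult libraries, with 3 fetal counts in all. Agtr2, the type 2 angiotensin receptor, was at 6.57, 5.78 and 6.54 CPM in the fetal libraries with no count in any adult library. Against a floor of 3 counts over the adult group it was at least 57.6-fold lower. Capn6, a calpain family member (-6.93 ± 0.27), and Nrk, the Nik-related kinase (38.5, 38.1 and 41.0 to 0.658, 0.307 and 0.233 CPM), were also among the 12 lowest, together with Igf2, Clca3a1, Lmod2, Dlk1, Fbn2, Igf2bp3, H19, Myh7 and Myh8.

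The steps before and after weaning were called in a fit of the 9 libraries. A step that did not pass may still hold a change, so the shares describe calls and do not date the net change. Without weaned library 3 the calls from weaned to adult went from 2978 to 4332. Of the 3743 genes higher in the adults, 37.1% were called up by weaning only, 17.4% after weaning only and 15.1% in both steps. Of the 3762 lower genes, 35.1% were called down by weaning only, 19.7% after it only and 8.6% in both. For 27.8% of the higher and 33.7% of the lower genes neither step passed. A peak at weaning was found for 334 genes (2.5% of 13353) and a trough for 164 (1.23%). Without weaned library 3, which stood apart, these counts were 599 and 332, and without single fetal or adult libraries the trough count fell to between 88 and 137. The 2 steps share the weaned libraries, so a weaned group that is off in either direction enters both.

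Cyp2b10, a cytochrome P450 of xenobiotic metabolism, peaked at 112, 158 and 96.1 CPM in the weaned libraries against 3.85, 5.32 and 4.39 in the fetal and 0.548, 0.921 and 0.816 in the adult ones. Its net change from fetal to adult was a fall (-2.56 ± 0.30). Slc7a8, an amino acid transporter, was at 159, 163 and 5.67 CPM in the weaned libraries, of which library 3 lay just under the fetal values of 7.53, 7.22 and 6.06. Its fall from fetal to adult was not called in fits of 9 or 18 libraries. Gfra1, the receptor for the neurotrophic factor GDNF, peaked at 41.7, 25.6 and 8.05 CPM and was lower in the adult than in the fetal libraries (-2.36 ± 0.40), a call lost in a fit of all 18 libraries. Some troughs ended near the fetal level. Anxa2, a membrane-binding annexin, was at 51.6, 43.5 and 57.2 CPM in the fetal, 10.4, 12.2 and 22.5 in the weaned and 44.1, 49.7 and 50.6 in the adult libraries. Its fetal and adult libraries overlapped (-0.07 ± 0.10), and Col27a1, a fibrillar collagen, did the same (64.8, 72.6 and 75.4, then 15.1, 12.4 and 22.1, then 69.5, 75.8 and 53.7 CPM). With library size alone both were called lower in the adults than in the fetal libraries (-0.46 and -0.48). The cytokinesis genes Prc1 and Racgap1 were lower in adult than in fetal libraries as well: Prc1 was at 8.23, 7.22 and 7.58 CPM in the fetal, 0.817, 0.319 and 0.153 in the weaned and 1.86, 0.819 and 1.40 in the adult libraries.

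**Figure D5:**
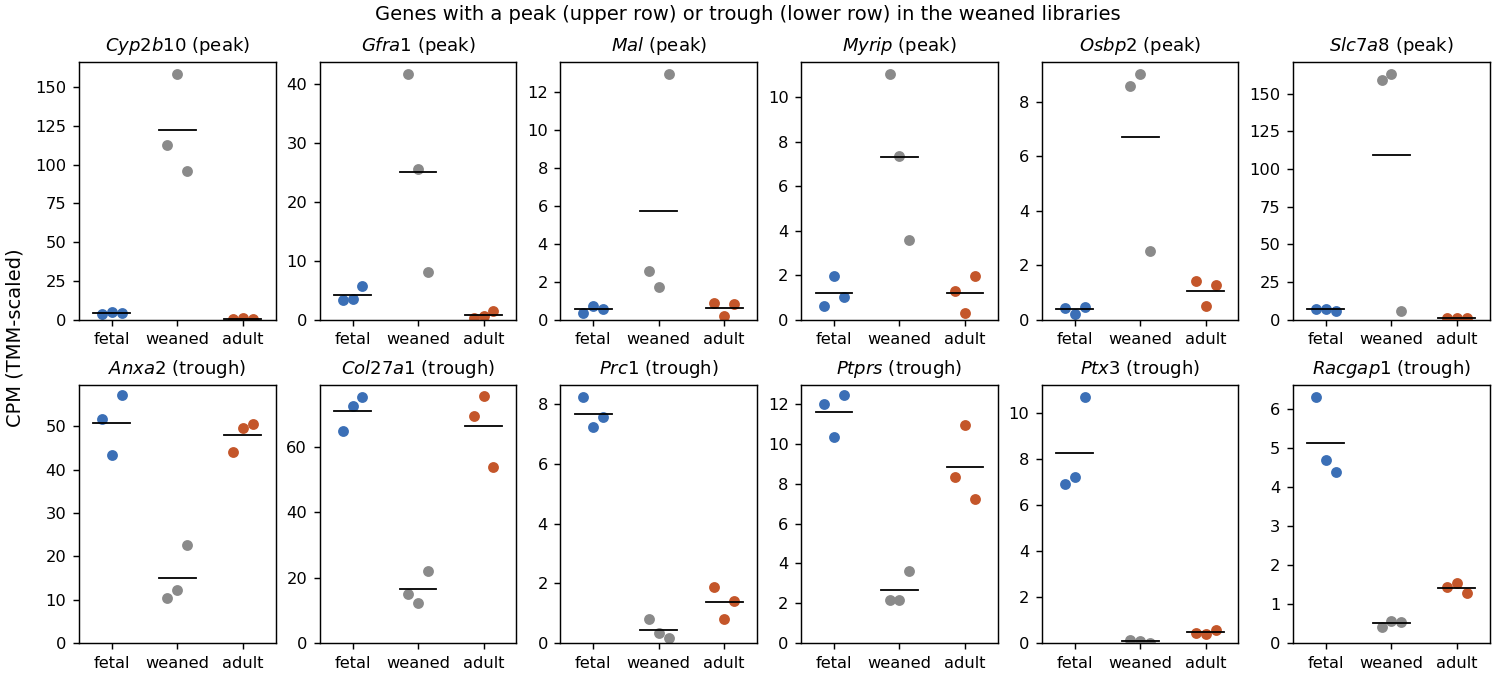
CPM (vertical axes, each from 0) of the 6 genes with the largest peak and the 6 with the largest trough at weaning, by their smaller step, in each fetal, weaned and adult control library; points are libraries and bars are group means. Cyp2b10 is at 96.1 to 158 CPM in the weaned libraries and under 6 CPM elsewhere, and the fetal and adult points of Anxa2 and Col27a1 overlap.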

How the data were processed

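RNA from interscapular brown fat was sequenced after library construction with an Illumina TruSeq kit, per the labels' protocols. The authors deposited 1 table per library with read counts per gene (55416 genes) in unstranded, forward and reverse columns, and the forward counts were used, which held 98.94 to 99.55% of the unstranded totals. The submitters' processing notes name Bowtie 0.12.2, STAR and the builds mm8 and mm9, with no role for each; in the sources used here the annotation is not given. Rows with a symbol (52083) held 99.97% of the counts.

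The members and gene lists were chosen with earlier results of these data known. Genes passing filterByExpr in the 6 libraries were fitted in edgeR 4.0.16 (R 4.3.3) with quasi-likelihood tests, group as the sole term and TMM factors over the 9 control libraries. The call threshold was a Benjamini-Hochberg adjusted p of 0.05. Peaks and troughs at weaning passed both steps, in opposite directions, in a fit of the 9 libraries. Named genes were a fixed set and the paralogue pairs; the 12 largest changes in each direction with non-overlapping groups; up to 5 rising and 5 falling members of each list with at least 5 CPM in the higher group, and up to 3 members that did not pass; and 6 peak and 6 trough genes. Lists were described by counts and medians without a set test. Replicate numbers were not taken to pair the libraries, since deviations of same-numbered libraries from their group means correlated at -0.06 to 0.07. The scripts were tested on simulated data. Alternatives were other scalings and filters, DESeq2 1.42.0, limma 3.58.1 voom, other sets of libraries and leaving out each replicate; the fit with fetal library 3 alone was chosen after seeing the data. Intervals and floors cover counting error only. A few genes of the lists and pairs are not reported here by name.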

Additional observations from a re-analysis of the deposited data

How the results depend on the processing

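Against 7505 genes called between fetal and adult libraries (3743 higher, 3762 lower, 3216 of them at least 2-fold), library size alone gave 2159 higher and 6202 lower, 7909 genes called from fetal to weaned, 103 peaks and 1332 troughs. In lists not named for it above, library size alone raised the falls to 24 in DNA replication, 17 in nuclear receptors, 9 in erythroid genes, 8 each in oxidative stress, sympathetic input and smooth muscle, 7 in brown fat identity, 5 in fatty acid oxidation, 4 in fatty acid uptake and 2 in peroxisomal oxidation, and cut the rises to 4 in Wnt and related signalling and 3 each in imprinted genes, fibroblast genes and the unfolded protein response. With fetal library 3 alone, chosen after seeing the data and assuming that the lone sample varies like the adult group, 4932 genes were called, 2306 of them lower. Leaving out 1 library at a time gave 6853 to 7402 calls, 3487 to 3693 higher, 3160 to 3711 lower and 3270 to 3541 at least 2-fold. In the fit of the 9 libraries it gave 3301 to 5101 calls from fetal to weaned, 1960 to 4332 from weaned to adult, 241 to 599 peaks and 88 to 332 troughs. The 1960 came without adult library 3, and the 599 and 332 without weaned library 3. The trough count fell to 91 without adult library 2, 109 without adult library 3, and 104, 88 and 93 without fetal libraries 1, 2 and 3. The cause of these shifts was not tested. With the replicate number as a block 7313 genes were called, 7234 of them shared with the fit without it. The block gave 3652 higher, 3661 lower, 4236 from fetal to weaned, 2715 from weaned to adult, 292 peaks and 138 troughs. No named gene changed direction while called under any alternative run. Depth limits genes under about 0.35 CPM, the level of 3 counts in the shallowest library.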
